A study of Mus musculus with 12 samples.

Results

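The genes described here are 10 members of the antioxidant response: the transcription factor gene Nfe2l2, the sulfiredoxin gene Srxn1, the thioredoxin reductase gene Txnrd1, the glutathione peroxidase genes Gpx1 and Gpx2, Gclc, Gclm and Slc7a11 for glutathione synthesis, Nqo1 and Hmox1. They were taken by symbol from a table of 55421 genes, with no threshold on their values. Bulk RNA sequencing measured expression in epithelial cells of the mouse jejunum. The 4 groups were Fzd5KO at day 1, Ctrl at day 1, Fzd5KO at day 3 and Ctrl at day 3, with 3 libraries in each. The labels name no strain, age, sex, Cre driver or allele, and do not say what event the days are counted from or whether the libraries of a group came from separate mice. The p-values below therefore rest on differences among these libraries that may be technical.

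As background, Nfe2l2 encodes Nrf2, a transcription factor that Keap1 marks for degradation in unstressed cells. When oxidants or electrophiles modify Keap1, Nrf2 accumulates, pairs with small Maf proteins and binds antioxidant response elements, and Bach1 competes for the same elements. The targets make and recycle glutathione, reduce thioredoxin and peroxiredoxins, and detoxify quinones and heme. Fzd5 is a receptor for Wnt ligands, the signals that maintain intestinal crypts.

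At day 3, Srxn1, Txnrd1, Gpx2 and Nfe2l2 were higher in Fzd5KO than in Ctrl, with Srxn1 at 3.12 times its Ctrl level, Txnrd1 at 1.48 times, Gpx2 at 1.40 times and Nfe2l2 at 1.15 times. The calls of Srxn1, Txnrd1 and Gpx2 held under the 3 other scalings described below. That of Nfe2l2 did not hold with quantile normalization (log2 change -0.03, limma, adjusted p = 0.452). At day 1, with TPM as deposited, Gpx1 and Gpx2 were higher and no other member passed the test. On that scale Gpx2 was the 1 member called higher on both days, as were 203 of 14510 genes tested (1.40%). Txnrd1 was also called higher on both days under each of the 3 other scalings. With median-of-ratios scaling 5 members were called higher at day 1 and 8 at day 3. That scaling called 9.55% of all tested genes higher at day 1 and 32.0% at day 3.

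Levels are TPM, transcript abundances corrected for transcript length and set to 1 common total per library. Changes are differences of log2(TPM + 1) with their standard errors from limma, with p-values adjusted by the Benjamini-Hochberg method over the tested genes and called under 0.05. A gene was tested if it had at least 1 TPM in at least 3 libraries. That filter kept 8 of the 10 members and left out Hmox1 and Slc7a11.

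Of the 8 tested members, 2 were called higher and 0 lower in Fzd5KO at day 1, where 2.13% of all tested genes were called higher and 22.8% lower. At day 3, 4 were called higher and 0 lower, where 24.3% of all tested genes were called higher and 38.5% lower. The median log2 change of the 8 was 0.04 at day 1 and 0.17 at day 3, while the median of all tested genes was -0.14 on both days. At day 3 the Fzd5KO values lay above every Ctrl value for 6 of the 8 tested members, and for 25.7% of all tested genes. At day 1 they did so for Txnrd1, Gpx1 and Gpx2, and for 4.52% of all tested genes, and they lay below every Ctrl value for Srxn1 and for 38.9% of all tested genes.

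The targeted gene checked the labels. Fzd5 had 32.7 ± 0.694 TPM in Fzd5KO and 46.6 ± 2.94 TPM in Ctrl at day 1, and 38.6 ± 0.97 TPM in Fzd5KO and 64.8 ± 3.95 TPM in Ctrl at day 3 (SD, n = 3 each). Its level was lower in Fzd5KO on both days by limma (adjusted p = 0.000151 at day 1 and 4.42e-07 at day 3), and it was not lost. The summed TPM of 6 epithelial markers ranged over 3911 to 4038 in Fzd5KO and 3825 to 3944 in Ctrl at day 1, and 5919 to 6076 in Fzd5KO and 3585 to 3776 in Ctrl at day 3. Between 21506 and 24467 genes were above 0 in a library, with the highest number in Ctrl replicate 1 of day 1.

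**Figure D1:**
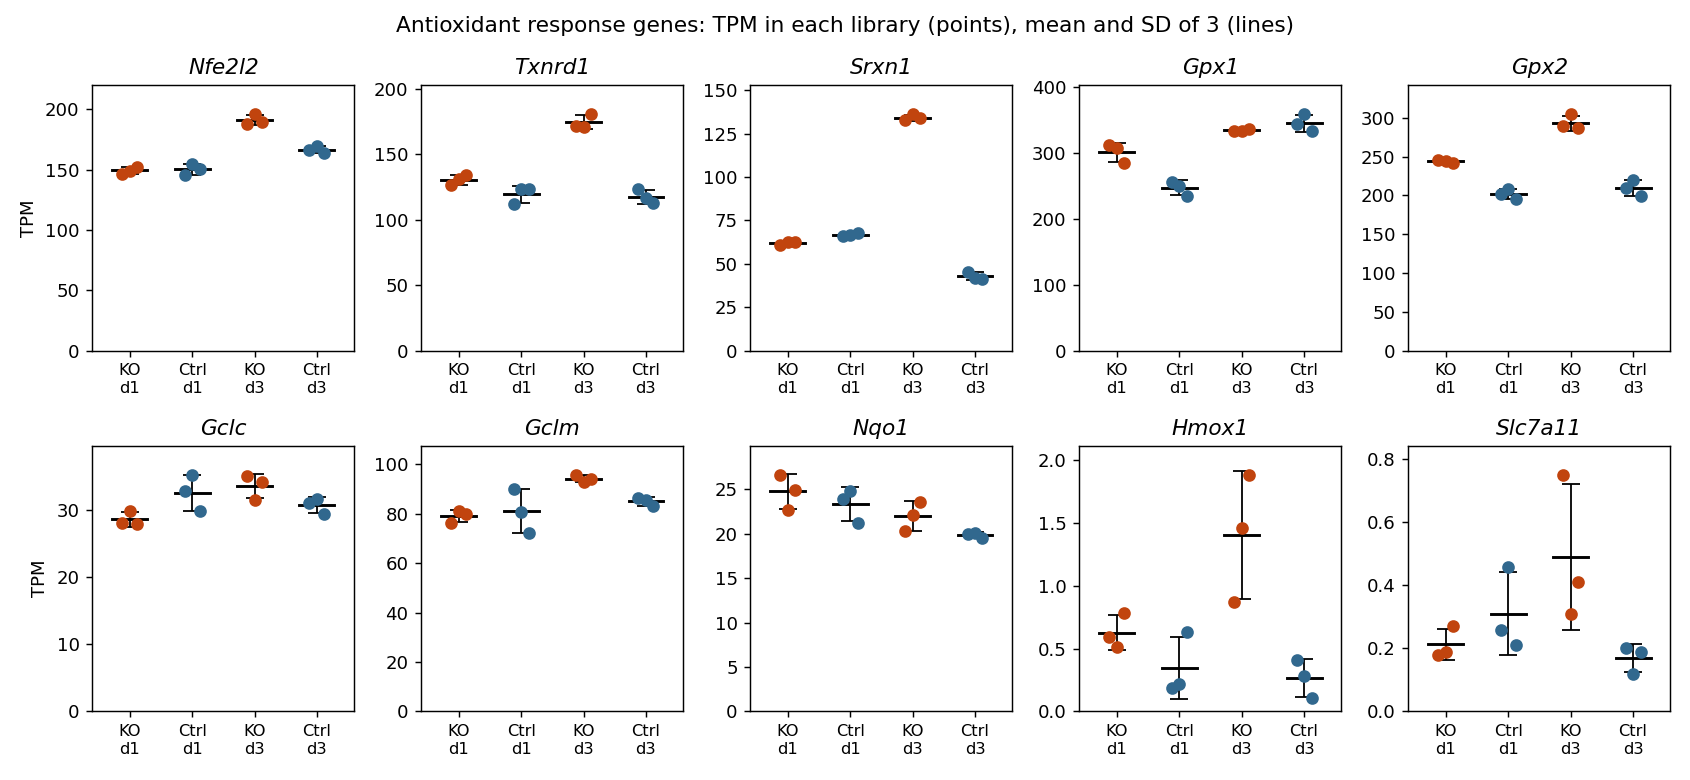
TPM of each of the 10 genes (vertical axis, from 0) in each library (points), with the mean and SD of the 3 libraries of a group (lines); KO is Fzd5KO, and d1 and d3 are day 1 and day 3. Srxn1 sits at 133 to 136 TPM in Fzd5KO at day 3 and at 41.4 to 45.5 TPM in Ctrl at day 3. Gpx1 and Gpx2 are higher in Fzd5KO at day 1, and the Gpx1 groups overlap at day 3.

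Srxn1 encodes sulfiredoxin, which repairs peroxiredoxins that peroxide has overoxidised (chr2:152105516-152111376, plus strand, mm10). In the day 3 libraries it had 132.8, 136.0 and 133.8 TPM in the Fzd5KO libraries and 45.5, 42.1 and 41.4 TPM in the Ctrl libraries. The groups were far apart, with each library close to the others of its group. The log2 change was 1.62 ± 0.04 (limma, adjusted p = 6.18e-11, 3 libraries each), rank 162 among the rises of the 14510 tested genes. At day 1 it had 60.8, 62.7 and 62.4 TPM in the Fzd5KO libraries and 65.8, 66.7 and 67.8 TPM in the Ctrl libraries. Every Fzd5KO value lay below every Ctrl value at day 1, yet the log2 change of -0.11 ± 0.04 did not pass the test (limma, adjusted p = 0.0655), and its sign turned under other scalings (0.01 with quantile normalization, 0.07 with median-of-ratios scaling).

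The difference between the days' genotype effects was tested as an interaction, day 3 effect minus day 1 effect. For Srxn1 it was 1.73 ± 0.05 on the log2 scale (limma, adjusted p = 1.35e-09). Both genotypes contributed to it. Within Fzd5KO, Srxn1 rose between the days by 1.10 ± 0.04 (limma, adjusted p = 2.69e-09), and within Ctrl it fell by 0.62 ± 0.04 (limma, adjusted p = 5.67e-07).

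Txnrd1 encodes the cytosolic thioredoxin reductase, which uses NADPH to keep thioredoxin reduced (chr10:82833951-82897712, plus strand, mm10). The day 3 values were 171.8, 170.8 and 180.3 TPM in the Fzd5KO libraries and 123.4, 116.4 and 113.0 TPM in the Ctrl libraries. All Fzd5KO values were higher, and the log2 change was 0.56 ± 0.05 (limma, adjusted p = 1.18e-06). The day 1 values were 126.6, 130.9 and 134.2 TPM in the Fzd5KO libraries and 112.1, 123.2 and 123.3 TPM in the Ctrl libraries. These groups did not overlap either, but the log2 change of 0.13 ± 0.05 missed the threshold (limma, adjusted p = 0.0715). It passed under each of the 3 other scalings described below, with log2 changes of 0.21 to 0.30. The interaction was 0.44 ± 0.07 (limma, adjusted p = 0.000276), but 0.13 with quantile normalization, where it did not pass (adjusted p = 0.144). Between the days Txnrd1 rose within Fzd5KO by 0.41 ± 0.05 (limma, adjusted p = 2.37e-05), and within Ctrl the change was -0.02 ± 0.05 (adjusted p = 0.745, 95% interval -0.13 to 0.08). The rise in Fzd5KO did not pass with quantile normalization (0.09, adjusted p = 0.144), and in Ctrl Txnrd1 was called lower with median-of-ratios scaling (-0.15, adjusted p = 0.0161).

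The promoters of Srxn1, Txnrd1 and Gpx2 are shown. That of Gpx2 is shown as the member called the same way on both days with TPM as deposited. Those of Srxn1 and Txnrd1 were chosen after their values were seen, for their rises at day 3. Each line gives the 250 bases before a RefSeq start on GRCm38.p6, 5′ to 3′ on the gene's strand. Capitals mark a match to the antioxidant response element core TGACNNNGC or to TGANTCAGC, a form of the site that can also serve AP-1, each searched on both strands.
Srxn1, chr2:152105274-152105523, plus strand: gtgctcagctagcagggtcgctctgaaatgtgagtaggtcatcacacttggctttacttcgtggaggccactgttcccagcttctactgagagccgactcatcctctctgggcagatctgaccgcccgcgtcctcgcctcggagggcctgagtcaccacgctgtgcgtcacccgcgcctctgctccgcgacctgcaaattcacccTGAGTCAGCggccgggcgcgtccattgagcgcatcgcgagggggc
Txnrd1, the second of 3 starts, chr10:82858956-82859205, plus strand: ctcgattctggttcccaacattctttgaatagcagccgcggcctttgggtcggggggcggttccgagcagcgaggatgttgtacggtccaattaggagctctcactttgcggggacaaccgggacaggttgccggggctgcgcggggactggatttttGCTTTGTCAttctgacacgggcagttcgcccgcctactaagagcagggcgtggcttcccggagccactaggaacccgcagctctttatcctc
Gpx2, chr12:76795555-76795804, minus strand: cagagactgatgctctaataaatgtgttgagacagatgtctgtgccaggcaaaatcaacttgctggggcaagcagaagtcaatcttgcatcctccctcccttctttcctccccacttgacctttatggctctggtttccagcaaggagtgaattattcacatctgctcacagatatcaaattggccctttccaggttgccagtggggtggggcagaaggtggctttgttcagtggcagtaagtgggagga
In the Srxn1 stretch TGAGTCAGC begins 45 bases before the start. A GCTAGGTCA, which is TGACNNNGC read on the other strand, begins 29 bases after the start and so lies outside the stretch shown. In the Txnrd1 stretch GCTTTGTCA, again the other strand, begins 92 bases before the start. Of the 3 Txnrd1 starts, only the one shown had either motif in its window. The Gpx2 window held neither motif. Over windows of 300 bases that reach 50 bases past the start, TGACNNNGC stood in 4071 of 32851 windows (12.4%) and in 4 of the 10 windows of the 8 members in the table, those of Gclm, Nfe2l2, Srxn1 and Txnrd1. TGANTCAGC stood in 390 windows (1.19%), of which 1 was a member's. A match describes letters in a window and is not evidence of a bound site.

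Gpx2 encodes the glutathione peroxidase of the gastrointestinal epithelium (chr12:76792333-76795554, minus strand, mm10). It had 245.9, 244.3 and 242.0 TPM in the Fzd5KO libraries and 201.6, 208.8 and 195.3 TPM in the Ctrl libraries at day 1. At day 3 it had 288.9, 304.2 and 286.2 TPM in the Fzd5KO libraries and 209.8, 219.3 and 198.8 TPM in the Ctrl libraries. Fzd5KO was higher in every library on each day. The log2 change was 0.27 ± 0.04 at day 1 (limma, adjusted p = 0.00108) and 0.48 ± 0.04 at day 3 (limma, adjusted p = 1.25e-06). The interaction of 0.21 ± 0.06 passed the test (limma, adjusted p = 0.0116), but it was 0.04 with quantile normalization and 0.01 with rescaled TPM and did not pass under either. Its neighbour Fntb lies on the opposite strand and overlaps it, with group means of 5.30 to 6.59 TPM, and whether counting used strand is not stated in the sources. The pseudogene Gpx2-ps1 had 0.22 to 1.65 TPM.

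Gpx1 encodes the glutathione peroxidase found in nearly all cells (chr9:108338903-108340343, plus strand, mm10). At day 1 it had 311.8, 307.7 and 284.9 TPM in the Fzd5KO libraries and 257.1, 250.1 and 234.7 TPM in the Ctrl libraries. The groups did not overlap, and the log2 change was 0.28 ± 0.04 (limma, adjusted p = 0.00136). Its day 3 values were 334.1, 334.5 and 337.2 TPM in the Fzd5KO libraries and 344.6, 358.9 and 333.2 TPM in the Ctrl libraries. The groups overlapped at day 3, with a log2 change of -0.04 ± 0.04 (limma, adjusted p = 0.421, 95% interval -0.14 to 0.05). This was the 1 member whose interaction was called negative, at -0.33 ± 0.06 (limma, adjusted p = 0.00136). Gpx1 rose between the days in both genotypes, by 0.15 ± 0.04 in Fzd5KO (adjusted p = 0.0148) and by 0.48 ± 0.04 in Ctrl (adjusted p = 1.35e-05). The rise in Fzd5KO missed the threshold without Fzd5KO replicate 3 of day 1 (adjusted p = 0.0654). None of the 3 other scalings called it, with 0.0076 under quantile normalization, 0.0080 under median-of-ratios scaling and -0.08 with rescaled TPM. Of the markers of other cells, the summed TPM of 5 erythroid genes ranged over 54.2 to 67.6 in Fzd5KO and 88.4 to 108.5 in Ctrl at day 1, and 54.4 to 69.4 in Fzd5KO and 200.7 to 228.2 in Ctrl at day 3, and its part in the Gpx1 values was not tested.

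**Figure D2:**
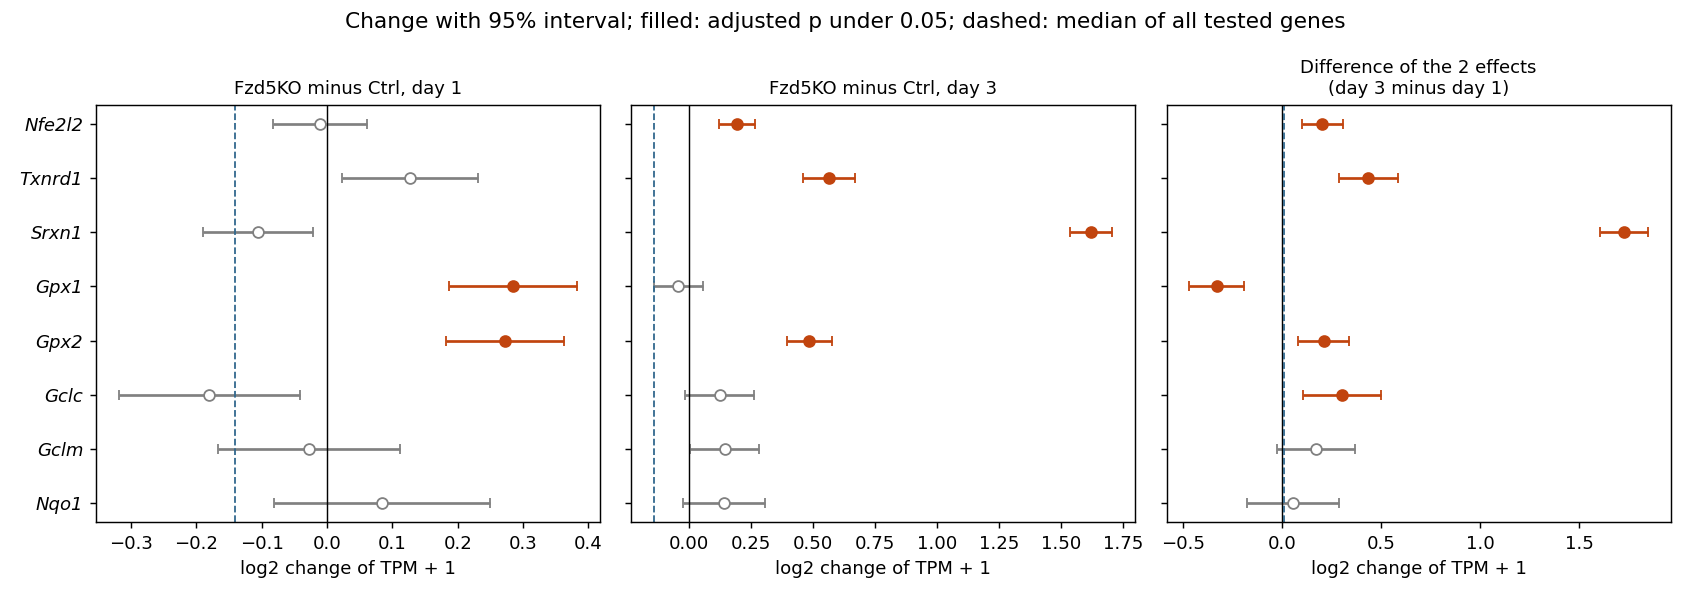
Log2 change of TPM + 1 (horizontal axis) of the 8 tested genes with its 95% interval, for the genotype effect (Fzd5KO minus Ctrl) of each day and for the difference between the days' effects; filled points have adjusted p under 0.05 and the dashed line is the median of all tested genes. Srxn1 stands at 1.62 at day 3 and Gpx1 has its filled point at day 1 and an open one at day 3.

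Nfe2l2 (chr2:75675513-75704641, minus strand, mm10) had 146.4, 149.0 and 152.4 TPM in the Fzd5KO libraries and 145.8, 154.9 and 150.5 TPM in the Ctrl libraries at day 1. Its day 3 values were 187.5, 195.6 and 189.2 TPM in the Fzd5KO libraries and 166.1, 169.6 and 164.0 TPM in the Ctrl libraries. The day 1 groups overlapped and the day 3 groups did not. The log2 change was -0.01 ± 0.03 at day 1 (limma, adjusted p = 0.834) and 0.19 ± 0.03 at day 3 (limma, adjusted p = 0.000313). The day 3 call depended on the scaling: the change was -0.03 with quantile normalization (adjusted p = 0.452), 0.35 with median-of-ratios scaling and 0.10 with rescaled TPM. The interaction of 0.21 ± 0.05 (limma, adjusted p = 0.00387) likewise turned to -0.12 with quantile normalization and was 0.01 with rescaled TPM. Nfe2l2 rose between the days in both genotypes, by 0.35 ± 0.03 in Fzd5KO (adjusted p = 4.46e-06) and by 0.15 ± 0.03 in Ctrl (adjusted p = 0.00538). The rise in Fzd5KO did not pass with quantile normalization (0.04, adjusted p = 0.413), nor the rise in Ctrl with median-of-ratios scaling (0.02, adjusted p = 0.598). These are transcript levels, while Nrf2 is controlled largely through the stability of the protein, which was not measured.

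Gclc and Gclm encode the catalytic and the modifier subunit of glutamate-cysteine ligase, the rate-limiting enzyme of glutathione synthesis. Gclc (chr9:77754535-77794485, plus strand, mm10) had 27.9, 29.8 and 27.9 TPM in the Fzd5KO libraries and 32.7, 35.1 and 29.8 TPM in the Ctrl libraries at day 1, a log2 change of -0.18 ± 0.06 (limma, adjusted p = 0.0583). At day 3 it had 34.9, 31.5 and 34.0 TPM in the Fzd5KO libraries and 31.0, 31.5 and 29.3 TPM in the Ctrl libraries, a log2 change of 0.12 ± 0.06 (adjusted p = 0.110). The groups overlapped on both days and neither day passed the test, while the difference between them did, at 0.30 ± 0.09 (limma, adjusted p = 0.0166). That interaction did not pass with quantile normalization (0.17, adjusted p = 0.122) or rescaled TPM (0.11, adjusted p = 0.285). The day 3 change of Gclc passed with median-of-ratios scaling (0.27, adjusted p = 0.00173).

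Gclm (chr3:122245557-122270732, plus strand, mm10) had 76.4, 81.1 and 79.9 TPM in the Fzd5KO libraries and 90.1, 80.6 and 72.3 TPM in the Ctrl libraries at day 1. The Ctrl libraries spanned the Fzd5KO ones, and the log2 change was -0.03 ± 0.06 (limma, adjusted p = 0.772). The day 3 values were 95.5, 92.7 and 93.8 TPM in the Fzd5KO libraries and 86.5, 85.6 and 83.0 TPM in the Ctrl libraries. All Fzd5KO values were higher at day 3, yet the log2 change of 0.14 ± 0.06 did not pass (limma, adjusted p = 0.0687). It passed without replicate 1 (adjusted p = 0.0163) or replicate 3 (adjusted p = 0.0167) of Ctrl at day 1, the libraries at the ends of that group's range, which enter through the shared estimate of the spread. The Gclm change at day 3 also passed when only the day 3 libraries were fitted (adjusted p = 0.0126). With median-of-ratios scaling it was 0.29 and passed (adjusted p = 0.00209).

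Nqo1 encodes a quinone reductase that is a widely used Nrf2 target (chr8:107388225-107403206, minus strand, mm10). It had 26.6, 22.7 and 25.0 TPM in the Fzd5KO libraries and 23.9, 24.8 and 21.2 TPM in the Ctrl libraries at day 1. Its levels at day 3 were 20.3, 22.1 and 23.6 TPM in the Fzd5KO libraries and 19.9, 20.1 and 19.5 TPM in the Ctrl libraries. The groups overlapped at day 1, and at day 3 each Fzd5KO library was above the Ctrl libraries by a small step. The log2 change was 0.08 ± 0.08 at day 1 (limma, adjusted p = 0.433) and 0.14 ± 0.08 at day 3 (limma, adjusted p = 0.125). The 95% intervals, -0.08 to 0.25 at day 1 and -0.03 to 0.31 at day 3, describe TPM as deposited. Nqo1 was called higher at day 3 with quantile normalization (0.22, adjusted p = 0.0149) and median-of-ratios scaling (0.29, adjusted p = 0.00357), and at day 1 with median-of-ratios scaling (0.25, adjusted p = 0.0291).

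Hmox1, the inducible heme oxygenase, and Slc7a11, the cystine transporter that supplies glutathione synthesis, were near the bottom of the scale. Hmox1 (chr8:75093621-75100589, plus strand, mm10) had 0.59, 0.51 and 0.78 TPM in the Fzd5KO libraries and 0.19, 0.22 and 0.63 TPM in the Ctrl libraries at day 1. At day 3 it had 0.87, 1.46 and 1.88 TPM in the Fzd5KO libraries and 0.41, 0.28 and 0.11 TPM in the Ctrl libraries. The groups overlapped at day 1 and not at day 3, where the ratio of the means was 5.26. The log2 difference with a pseudocount of 1, on which it depends strongly at these levels, was 0.28 at day 1 (two-sided exact permutation p = 0.300) and 0.91 at day 3 (exact permutation p = 0.1), and 3 libraries against 3 cannot give a p below 0.1. Over both days, with labels exchanged within days, it was 0.60 (exact permutation p = 0.0150, smallest possible 0.00500).

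A list of 11 genes named macrophage and myeloid moved with Hmox1 at day 3. Its most abundant gene, Ptprc, is also expressed by lymphocytes, so the sum is not specific to myeloid cells. At day 1 the list summed to between 18.4 and 19.6 TPM (Fzd5KO) and between 23.2 and 26.2 TPM (Ctrl). At day 3 the sums lay between 41.2 and 45.1 TPM (Fzd5KO) and between 15.9 and 21.4 TPM (Ctrl). Mean Ptprc was 7.95 TPM (Fzd5KO) against 12.1 TPM (Ctrl) at day 1. At day 3 its means were 13.7 TPM (Fzd5KO) and 4.27 TPM (Ctrl). Of the 9 listed genes that were tested, 7 were higher at day 3 and 0 lower by limma. Of all tested genes 24.3% were called higher and 38.5% lower. C1qb, C1qc and Csf1r passed the filter only through the Fzd5KO libraries of day 3, so their calls are not independent of it. C1qa, a complement gene of tissue macrophages, had 2.34 to 3.70 TPM in Fzd5KO and 0.77 to 1.33 TPM in Ctrl at day 3, and Cd163, a receptor for hemoglobin on macrophages, was at 0 in all libraries of day 1. Their part in the Hmox1 values was not tested.

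Slc7a11 (chr3:49892526-50443614, minus strand, mm10) had 0.18, 0.19 and 0.27 TPM in the Fzd5KO libraries and 0.26, 0.46 and 0.21 TPM in the Ctrl libraries at day 1. At day 3 it had 0.75, 0.31 and 0.41 TPM in the Fzd5KO libraries and 0.20, 0.12 and 0.19 TPM in the Ctrl libraries. The groups overlapped at day 1 and did not at day 3. The log2 difference was -0.11 at day 1 (exact permutation p = 0.300), 0.34 at day 3 (exact permutation p = 0.1) and 0.12 over both days (exact permutation p = 0.315). Levels this low are few reads at any usual depth, and TPM does not keep the depth. When genes of every level were fitted, limma called both genes higher at day 3, with adjusted p = 0.00254 for Hmox1 and 0.0331 for Slc7a11.

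Because TPM fixes the total, abundant RNAs can shift all other values, so the tests were repeated after quantile normalization, after median-of-ratios scaling, and on TPM rescaled after dropping mitochondrial genes, small RNA and predicted genes, and the 20 genes of highest abundance. These moved the median log2 change of all tested genes by 0.14, 0.15 and 0.09 at day 1, and by 0.11, 0.13 and -0.07 at day 3. At day 3 Srxn1 had log2 changes of 1.48, 1.77 and 1.54 under these scalings, Txnrd1 had 0.34, 0.72 and 0.47, and Gpx2 had 0.38, 0.64 and 0.39, each called. Gpx1 and Gpx2 were called higher at day 1 under all of them, with log2 changes of 0.34 to 0.46. Gpx1 at day 3 was called lower with quantile normalization (-0.10) and rescaled TPM (-0.14) and higher with median-of-ratios scaling (0.11), so its direction at day 3 turned with the scaling. Of all tested genes, these scalings called 5.86%, 9.55% and 5.93% higher and 6.34%, 5.72% and 10.6% lower at day 1.

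**Figure D3:**
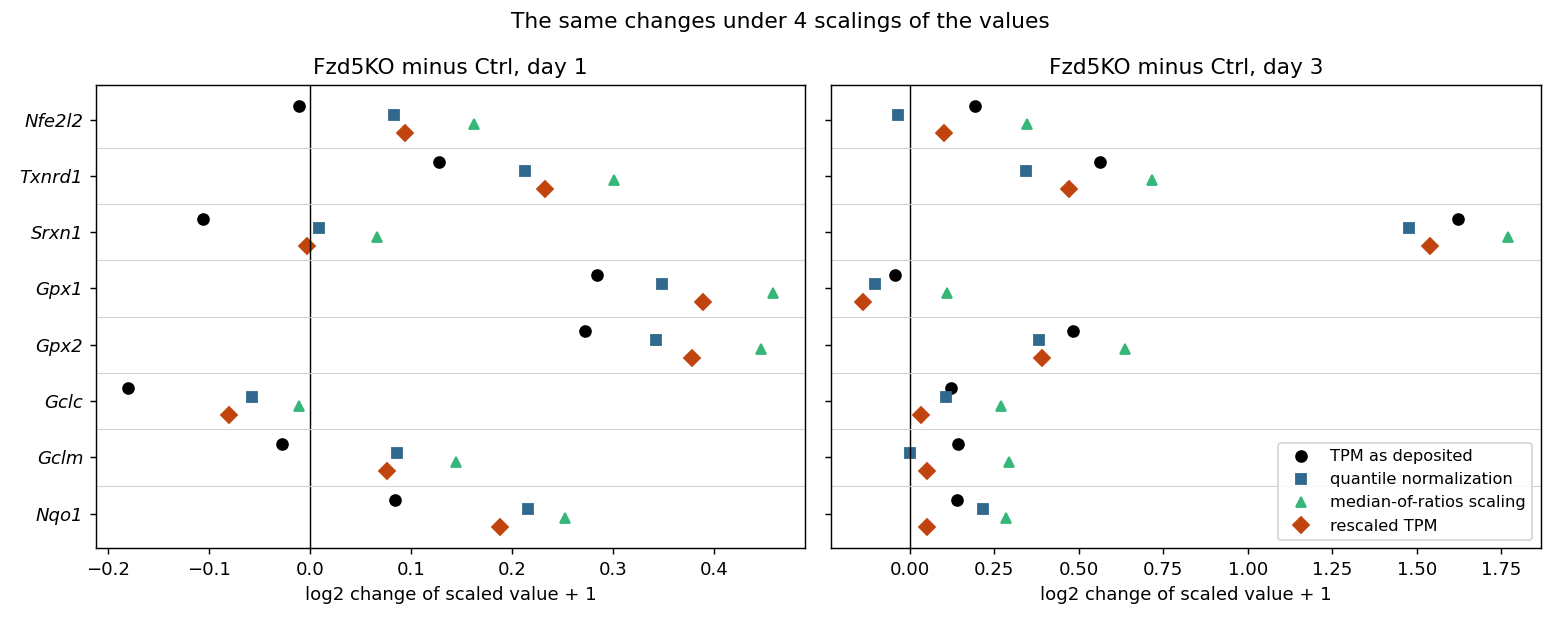
Log2 change of the scaled value + 1 (horizontal axis), Fzd5KO minus Ctrl at day 1 and day 3, for the 8 tested genes under TPM as deposited, quantile normalization, median-of-ratios scaling and rescaled TPM. Srxn1, Txnrd1 and Gpx2 lie right of 0 at day 3 under all 4, while Nfe2l2 and Gpx1 have points on both sides.

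Ratios between genes within a library do not move with any single scaling factor per library. The ratio of Srxn1 to Txnrd1 was 0.770 ± 0.0273 in Fzd5KO and 0.366 ± 0.00322 in Ctrl at day 3, and 0.475 ± 0.00854 in Fzd5KO and 0.559 ± 0.0243 in Ctrl at day 1 (SD, n = 3 each). It was higher in every Fzd5KO library at day 3 and lower in every Fzd5KO library at day 1, with the smallest p the design allows on each day (exact permutation p = 0.1). The ratio of Gpx2 to Gpx1 was 0.874 ± 0.0315 in Fzd5KO and 0.606 ± 0.00776 in Ctrl at day 3, without overlap (exact permutation p = 0.1). At day 1 it was 0.811 ± 0.0337 in Fzd5KO and 0.817 ± 0.0285 in Ctrl (exact permutation p = 1). The ratio of Gclm to Gclc overlapped between the genotypes on both days, at 2.81 ± 0.115 in Fzd5KO and 2.78 ± 0.0599 in Ctrl at day 3. These 3 ratios were chosen after the values were seen.

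**Figure D4:**
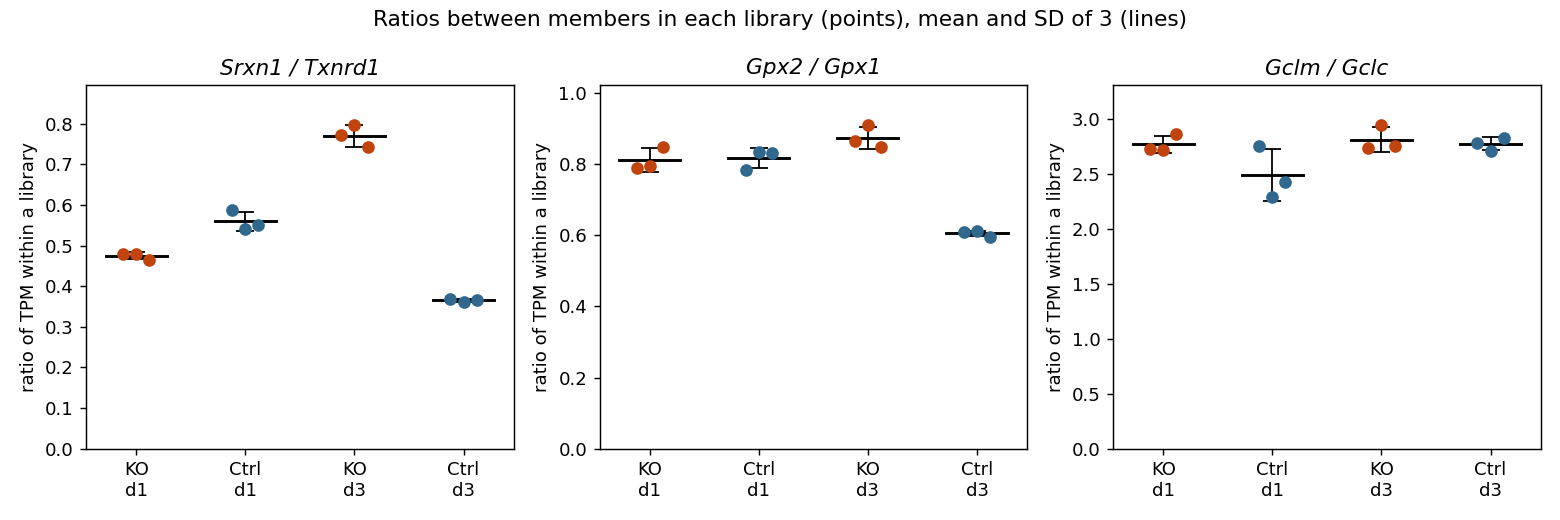
Ratio of TPM of gene pairs within each library (points; vertical axis from 0), with mean and SD of 3 libraries (lines); KO is Fzd5KO, and d1 and d3 are day 1 and day 3. The Srxn1 to Txnrd1 ratio is 0.742 to 0.796 in Fzd5KO and 0.362 to 0.369 in Ctrl at day 3, and the Gclm to Gclc ratio overlaps between genotypes on both days.

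Between day 1 and day 3 the genotypes moved differently. In Fzd5KO, 7 of the 8 tested members were called higher at day 3 than at day 1 and 0 lower, where 34.4% of all tested genes were called higher and 10.5% lower. In Ctrl, Nfe2l2 and Gpx1 were called higher and Srxn1 and Nqo1 lower, where 25.0% of all tested genes were called higher and 11.0% lower. The count in Fzd5KO depended on the scaling, with 2 called higher under quantile normalization, 3 called higher under rescaled TPM, and Nqo1 called lower under both. With median-of-ratios scaling Nqo1 was called lower too (-0.30, adjusted p = 0.00369), and Gclc, Gclm and Gpx1 lost their calls. Of all tested genes, 21.0% were called higher and 19.7% lower there with quantile normalization, and 23.3% higher and 29.5% lower with rescaled TPM. With median-of-ratios scaling these shares were 24.5% and 19.1%. The Nqo1 fall in Ctrl was 0.22 on the log2 scale (limma, adjusted p = 0.0407), and leaving out single libraries took its adjusted p as high as 0.128. The interaction was called for 6 of the 8 members, 5 positive and 1 negative, where 25.3% of all tested genes were called positive and 19.1% negative, 44.3% in all. Srxn1 and Gpx1 kept that call under all 3 other scalings.

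The other genes of the pathway were described from 8 lists, which held 96 tested genes besides the members. Rises and falls given for them compare Fzd5KO with Ctrl on the day named, unless a change between the days is stated. At day 1, 5 of the 96 were called higher and 25 lower in Fzd5KO, and at day 3, 47 were called higher and 21 lower. Of all tested genes 2.13% were called higher and 22.8% lower at day 1, and 24.3% higher and 38.5% lower at day 3, and the counts of each list below stand beside these shares. The day 1 split turned on the scaling, as it did for all tested genes: quantile normalization gave 12 higher and 13 lower, median-of-ratios scaling 22 higher and 6 lower, and rescaled TPM 16 higher and 14 lower. At day 3 the 3 scalings gave 44 to 56 higher and 13 to 27 lower. Of all tested genes, quantile normalization, median-of-ratios scaling and rescaled TPM called 27.5%, 32.0% and 24.8% higher at day 3. They called 30.3%, 28.8% and 49.4% lower. For the regulators around Keap1 and Nrf2, 0 of 12 were higher and 3 lower at day 1, while 7 were higher and 1 lower at day 3, with a median log2 change of 0.29. Bach1, the competitor of Nrf2 at its binding sites, had 53.1 ± 2.11 TPM in Fzd5KO and 26.6 ± 1.11 TPM in Ctrl at day 3 (SD, n = 3 each), a log2 change of 0.97 ± 0.05 (limma, adjusted p = 8.94e-09). The small Maf gene Maff rose by 1.07 ± 0.10 and Mafk by 0.38 ± 0.07. Sqstm1, the p62 adaptor that binds Keap1, fell by 0.31 ± 0.06 at day 1 and rose by 0.43 ± 0.06 at day 3, and the fall missed the threshold with median-of-ratios scaling (-0.14, adjusted p = 0.0816). Keap1 itself had a log2 change of 0.19 at day 3 and did not pass the test (adjusted p = 0.119), though it passed with quantile normalization (0.25, adjusted p = 0.0408).

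All 6 genes of the list named NADPH-producing enzymes were called higher at day 3, with a median log2 change of 0.58. At day 1, 0 were called in either direction. The list includes Tkt and Taldo1, pentose phosphate pathway enzymes that do not themselves make NADPH. Me1, the cytosolic malic enzyme, had 25.1 ± 1.05 TPM in Fzd5KO and 7.99 ± 0.631 TPM in Ctrl at day 3 (SD, n = 3 each), a log2 change of 1.54 ± 0.06 (limma, adjusted p = 2.19e-09). The cytosolic isocitrate dehydrogenase gene Idh1 rose by 1.12 ± 0.03, and Pgd and G6pdx of the pentose phosphate pathway rose by 0.69 ± 0.03 and 0.46 ± 0.05. With rescaled TPM 5 of the 6 were called higher at day 3, and at day 1 the other scalings called 2 to 4 of them higher.

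Of 16 other genes of glutathione synthesis and recycling, 2 were higher and 4 lower at day 1, and 6 were higher and 5 lower at day 3, with a median log2 change of -0.0037 at day 3. Glutathione reductase, Gsr, rose on both days, by 0.16 ± 0.04 at day 1 and 0.88 ± 0.04 at day 3. Ggt1, which cleaves extracellular glutathione, rose by 1.17 ± 0.04 at day 3 and glutaredoxin, Glrx, by 0.83 ± 0.04, after a log2 change of -0.18 ± 0.04 at day 1 (limma, adjusted p = 0.0132) that none of the 3 other scalings called. Slc3a2, the partner chain of Slc7a11 and of other amino acid transporters, had 280.2 ± 5.48 TPM in Fzd5KO and 193.2 ± 2.98 TPM in Ctrl at day 3 (SD, n = 3 each), and fell by 0.28 ± 0.04 at day 1, a call that median-of-ratios scaling ended (-0.11, adjusted p = 0.0642). Of the 2 other glutathione peroxidases tested, Gpx4 rose by 0.31 ± 0.07 at day 3 and Gpx3 had a log2 change of 0.29 ± 0.17 that did not pass (adjusted p = 0.150).

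The remaining enzyme families were divided. Of 21 glutathione S-transferases, 0 were higher and 7 lower at day 1, and 6 were higher and 6 lower at day 3. Gstm1 and Gstm3 were called lower at day 1, with log2 changes of -0.59 ± 0.05 and -0.47 ± 0.05. Their day 3 means were also lower in Fzd5KO. These were 51.1 TPM in Fzd5KO and 72.6 TPM in Ctrl for Gstm1, and 82.6 TPM in Fzd5KO and 109.9 TPM in Ctrl for Gstm3. Gstm2 fell by 0.999 ± 0.0912 and Gstt1 by 0.81 ± 0.07 at day 3, while Gsta1, which has near-identical copies, rose by 0.84 ± 0.05. The Gsta1 means in Ctrl were 470.7 TPM at day 1 and 272.0 TPM at day 3, and in Fzd5KO 432.7 and 487.6 TPM. Of 17 genes of the thioredoxin system and peroxiredoxins, 1 was higher and 5 lower at day 1, and 8 were higher and 5 lower at day 3. Prdx5 rose by 0.79 ± 0.04 at day 3 and Prdx4, a peroxiredoxin of the endoplasmic reticulum, fell by 0.73 ± 0.06. Prdx6 had the 1 rise of this list at day 1, by 0.40 ± 0.05. Its day 3 means were 193.9 TPM in Fzd5KO and 142.1 TPM in Ctrl. Txnip, which binds and inhibits thioredoxin, fell by 0.54 ± 0.05 at day 1. At day 3 Txnip was called the other way, with a log2 change of 0.28 (limma, adjusted p = 0.00096), though not with quantile normalization (0.05, adjusted p = 0.309). Of 3 genes of superoxide dismutases and catalase, 0 were called at day 1, and 1 was higher and 2 lower at day 3. Catalase, Cat, fell by 0.33 ± 0.04 at day 3, while the call of Sod1, higher by 0.12 ± 0.03, did not hold with quantile normalization (adjusted p = 0.192) or rescaled TPM (adjusted p = 0.444), and that of Sod2, lower by a log2 change of -0.15 ± 0.04, did not hold with median-of-ratios scaling (adjusted p = 0.986).

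Of 19 further Nrf2 targets, 2 were higher and 6 lower at day 1, and 12 were higher and 2 lower at day 3, with a median log2 change of 0.40 at day 3. Abcc2, an export pump for glutathione conjugates, had 400.9 ± 13.3 TPM in Fzd5KO and 105.5 ± 6.20 TPM in Ctrl at day 3 (SD, n = 3 each), a log2 change of 1.92 ± 0.05 (limma, adjusted p = 6.18e-11). Its day 1 means were 342.1 TPM in Fzd5KO and 415.2 TPM in Ctrl. Within Ctrl its log2 change between the days was -1.97 ± 0.05 (limma, adjusted p = 3.515e-10). Ugdh, which makes UDP-glucuronic acid, rose by 1.02 ± 0.04 and the nucleotidase gene Entpd5 by 0.95 ± 0.05 at day 3. At day 1 Entpd5 and Abcc2 were both called lower, by log2 changes of -0.34 ± 0.05 and -0.28 ± 0.05, and the fall of Abcc2 did not pass with median-of-ratios scaling (-0.10, adjusted p = 0.0817). Akr1b8, an aldo-keto reductase, rose by 0.72 ± 0.09 at day 1. Its day 3 levels were 33.7 ± 1.29 TPM in Fzd5KO and 10.35 ± 1.36 TPM in Ctrl (SD, n = 3 each). Under the 3 other scalings 11 to 14 of the 19 were called higher at day 3 and 0 to 3 lower.

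**Figure D5:**
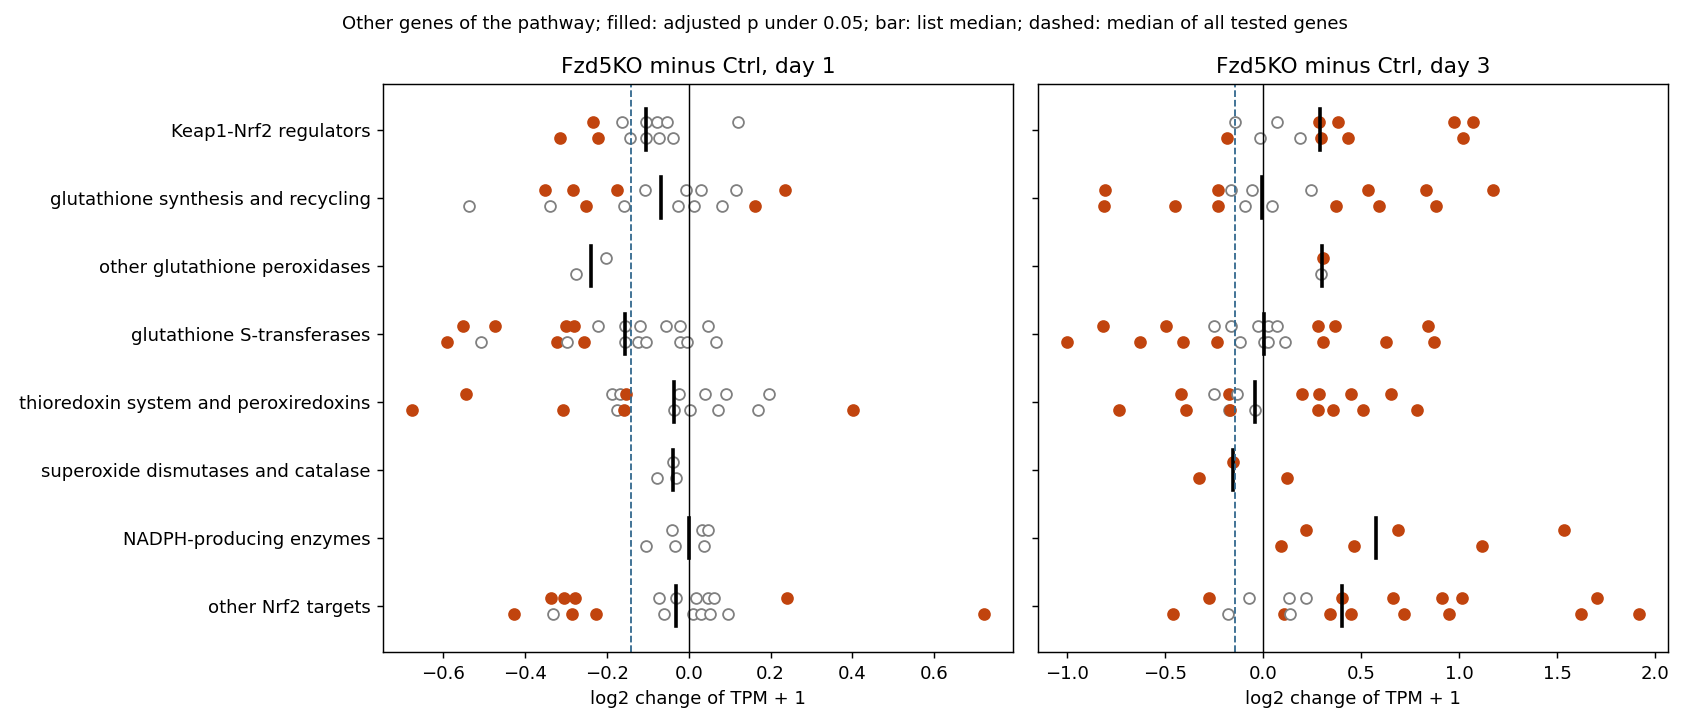
Log2 change of TPM + 1 (horizontal axis), Fzd5KO minus Ctrl at day 1 and day 3, of each tested gene of the 8 lists (rows); filled points have adjusted p under 0.05, bars are list medians and the dashed line is the median of all tested genes. All 6 genes in the row named NADPH-producing enzymes, Tkt and Taldo1 included, are filled and right of 0 at day 3. None is filled at day 1.

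Markers of the epithelial cell types moved with these genes. The summed TPM of 5 enterocyte markers ranged over 12714 to 13180 in Fzd5KO and 10263 to 10756 in Ctrl at day 1, and 20016 to 20569 in Fzd5KO and 8471 to 8940 in Ctrl at day 3. The day 1 sum was carried by Apoa4 and Fabp1: 2 of the 5 markers were called higher at day 1 and 2, Sis and Lct, lower, while at day 3, 4 were called higher and 0 lower. The summed TPM of 4 markers of crypt-base stem cells ranged over 64.8 to 67.0 in Fzd5KO and 315.5 to 333.2 in Ctrl at day 1, and 35.7 to 36.6 in Fzd5KO and 488.2 to 515.9 in Ctrl at day 3. Markers of Paneth cells summed to 1869 to 2024 TPM in Fzd5KO and 4643 to 4824 TPM in Ctrl at day 3. Other secretory lineages had lower sums too at day 3. Goblet cell markers had 4145 to 4404 TPM in Fzd5KO and 6060 to 6445 TPM in Ctrl, enteroendocrine markers 63.1 to 67.6 TPM in Fzd5KO and 246.4 to 255.9 TPM in Ctrl, and tuft cell markers 4.96 to 6.11 TPM in Fzd5KO and 27.4 to 31.2 TPM in Ctrl. Lymphocyte markers had higher sums in Fzd5KO at day 3. They were 27.2 to 33.2 TPM in Fzd5KO and 7.32 to 10.3 TPM in Ctrl for T cells. For B and plasma cells they were 11.6 to 12.2 TPM in Fzd5KO and 2.42 to 3.47 TPM in Ctrl. At day 1 the T cell sums were 19.1 to 23.3 TPM in Fzd5KO and 28.3 to 31.65 TPM in Ctrl. Within Ctrl all 4 T cell markers were called lower at day 3 than at day 1, and within Fzd5KO 1 was called higher. Bach2, a gene best known from lymphocytes, was among the 7 regulators called higher (log2 change 1.02, adjusted p = 0.000965). The part of these shifts in the changes of Srxn1, Txnrd1, Gpx2 and the other genes was not tested. In bulk RNA, fewer cells of a type and less RNA per cell cannot be told apart.

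Over the 12 libraries, the protein-coding genes whose log2 values followed Srxn1 most closely were Gpat3 (Pearson r = 0.999) and Slc16a5 (r = 0.998), a glycerol-3-phosphate acyltransferase and a monocarboxylate transporter. Parp14 was among those for Txnrd1 (r = 0.987), those for Gpx2 were Ptk6 (r = 0.986) and Slc23a4 (r = 0.985), and those for Nfe2l2 were Acadvl (r = 0.989) and Ifit1bl1 (r = 0.988). The closest genes were less alike for Gpx1 (Tmem37, r = 0.942), Gclm (Ubl4a, r = 0.942), Gclc (Ubac2, r = 0.908) and Nqo1 (Glipr1, r = 0.877). These values describe 12 libraries that fall into 4 groups and share their scaling, and they carry no test.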

How the data were processed

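Libraries were stranded total RNA libraries of jejunal epithelial cells, per the labels' protocols. Tools named in the submitters' processing notes are STAR 2.7.3a, RSEM and bcl2fastq 2.18, with the build mm10. Neither the annotation nor the use of strand in counting is stated there. What the authors deposited is a single table of TPM, estimated per gene and scaled to the same total in each of 12 libraries, with 0 columns of other samples. TPM keeps no depth, so no interval for counting error is given. Positions came from GENCODE M21, which held 55240 of the 55421 identifiers and lacked 181.

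The test was limma 3.58.1 (R 4.3.3) on log2(TPM + 1), with a mean per group, 1 shared spread (8 residual degrees of freedom), an intensity trend and Benjamini-Hochberg adjustment. Genes needed at least 1 TPM in at least 3 libraries. Fold changes on this scale understate the change of low genes. Hmox1 and Slc7a11 were tested by two-sided exact permutation. Figures used matplotlib 3.10.9 in Python 3.11.15.

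The members, lists and tests were chosen with earlier results of these data known. All 10 members are named. From each list up to 4 genes with the smallest p in a contrast could be named. Keap1 and Bach2 were named after their values were seen, as was Txnip at day 3. For each member called in any contrast the closest genes by correlation could be named, and 1 of them is not reported here. The promoter rule took members called the same way on both days with TPM as deposited, which is Gpx2. Srxn1 and Txnrd1, the motif TGANTCAGC, the ratios and the test over both days were chosen after the data were seen. Alternatives changed the pseudocount (0.1 or 5), the filter (none, or 5 TPM), the scaling, the trend, array weights, the libraries fitted and the replicate block, or left out each library in turn.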

Additional observations from a re-analysis of the deposited data

Results flagged for a closer look

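The genotype effect differed between the days for 6 members, by the test of that difference itself (limma interaction, day 3 effect minus day 1 effect, adjusted p under 0.05). The difference on the log2 scale was 1.73 for Srxn1 and 0.437 for Txnrd1. It was 0.303 for Gclc, 0.212 for Gpx2 and 0.205 for Nfe2l2. For Gpx1 it was -0.328, with all Fzd5KO libraries above the Ctrl libraries at day 1 and overlap between the groups at day 3. With quantile normalization the differences of Txnrd1, Gclc, Gpx2 and Nfe2l2 no longer passed, and with rescaled TPM those of Gclc, Gpx2 and Nfe2l2 did not.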

How the results depend on the processing

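The scaling of the libraries moved the member counts most. Hmox1 and Slc7a11 moved most with the pseudocount: at day 3 the Hmox1 log2 difference was 2.07 with 0.1 and 0.28 with 5, and that of Slc7a11 was 1.07 and 0.086. With rescaled TPM they were 1.21 for Hmox1 and 0.49 for Slc7a11. With quantile normalization 2 members were called in the interaction and 3 between the days in Fzd5KO, against 6 and 7. With rescaled TPM these counts were 3 and 4. Of all tested genes, quantile normalization called the interaction positive for 21.6% and negative for 22.2%. Rescaled TPM called it positive for 22.0% and negative for 36.2%. Between the days in Fzd5KO the shares higher and lower were 21.0% and 19.7% with quantile normalization, and 23.3% and 29.5% with rescaled TPM. With median-of-ratios scaling 5 members were called at day 1 and 8 at day 3, against 2 and 4, while it called 9.55% of all tested genes higher at day 1 and 32.0% at day 3. Without a filter 6 were called at day 3, where 12.2% of all genes were called higher. The cause was not tested.

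The sign turned as follows. With quantile normalization the log2 changes at day 1 were 0.083 for Nfe2l2, 0.086 for Gclm and 0.0094 for Srxn1. The Nfe2l2 change was -0.034 at day 3 and its interaction -0.12, with interactions of -0.00063 for Nqo1 and -0.084 for Gclm. Between the days in Fzd5KO, Gclc had -0.0097 and Gclm -0.050. With median-of-ratios scaling the day 1 changes were 0.16 for Nfe2l2, 0.14 for Gclm and 0.066 for Srxn1. Gpx1 had 0.11 at day 3, and between the days in Ctrl, Gclm had -0.049 and Gpx2 -0.074. With rescaled TPM the day 1 changes were 0.094 for Nfe2l2 and 0.076 for Gclm. The interactions were -0.14 for Nqo1 and -0.025 for Gclm, and between the days in Fzd5KO, Gclc had -0.00072 and Gpx1 -0.075.

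Leaving out 1 library at a time gave 2 to 3 members called at day 1, 4 to 5 at day 3, 6 to 7 in the interaction, 3 to 4 between the days in Ctrl and 6 to 8 in Fzd5KO. Over these the day 1 change ran from -0.033 to 0.011 for Nfe2l2 and from -0.11 to 0.051 for Gclm. The Nqo1 interaction ran from -0.0024 to 0.12. Between the days in Ctrl, Gclm ran from -0.0028 to 0.15 and Txnrd1 from -0.068 to 0.0055. Gclc at day 1 passed without Ctrl replicate 3 of day 1 (adjusted p = 0.0201), and its rise between the days in Fzd5KO did not pass without Fzd5KO replicate 1 of day 3 (adjusted p = 0.0527). Srxn1 at day 1 passed without Ctrl replicate 1 of day 3 (adjusted p = 0.0319), and the Gclm interaction passed without Ctrl replicate 3 of day 1 (adjusted p = 0.0124).

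Same-numbered libraries did not deviate together (correlations of -0.0692 to 0.0334 over 12 pairs, 0 of them over 0.1), so the numbers were not taken as pairs. With the replicate block 2, 4, 6, 3 and 7 members were called at day 1, at day 3, in the interaction and between the days in Ctrl and Fzd5KO. Of all tested genes, it called 2.05% higher and 21.5% lower at day 1, and 24.2% and 38.1% at day 3. In the interaction it called 25.0% positive and 18.7% negative. Between the days it called 24.3% higher and 10.8% lower in Ctrl, and 33.9% and 10.1% in Fzd5KO. The block ended the call of Nqo1 between the days in Ctrl (adjusted p = 0.0666). Depth is unknown, which limits Hmox1 and Slc7a11 most.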
